A study of Mus musculus with 12 samples.

Results

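Genes of the mitochondrial carrier family, whose names begin with *Slc25*, were examined for trimethylation of histone H3 at lysine 4 (H3K4me3), a chromatin mark typical of active promoters. Every H3K4me3 peak that lay on an autosome and was assigned to a protein-coding gene of that name was taken, which gave 32 of 15848 peaks, each belonging to a different gene. Chromatin of cardiomyocyte (CM) nuclei, sorted from the ventricles of adult mice by the CM nuclear marker PCM1, was immunoprecipitated with an antibody to H3K4me3 and sequenced (ChIP–seq). The comparison asks where H3K4me3 differs once CMs lack *Cpt1b*, the muscle isoform of carnitine palmitoyltransferase 1, which commits long-chain fatty acids to mitochondrial import. *CtrlCre* mice carried the *αMHC*-Cre transgene (pos/+) with wild-type *Cpt1b* alleles (+/+), and *Cpt1bcKO* mice carried the same transgene (pos/+) with floxed *Cpt1b* alleles (fl/fl), so that both genotypes expressed Cre. The *αMHC* promoter drives Cre in CMs from embryonic stages, and the mutant CMs therefore lacked *Cpt1b* long before the adult stage at which nuclei were collected. There were 3 ChIP libraries per genotype. The study's methods speak of biological replicates for in vivo work, but no label ties each ChIP library to a mouse of its own, and p-values measure the spread between these libraries.

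Most members of the *Slc25* family are proteins of the inner mitochondrial membrane that exchange metabolites between cytosol and matrix. They carry ADP and ATP, phosphate, di- and tricarboxylates, amino acids, nucleotides, cofactors, metals and, in the case of *Slc25a20*, acylcarnitines. In the heart, ATP made in mitochondria leaves through the ADP/ATP carrier, and long-chain fatty acids enter as acylcarnitines that are made by *Cpt1b*, moved across the inner membrane by *Slc25a20* and turned back into acyl-CoA by *Cpt2*.

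The gene annotation (GENCODE vM21, build GRCm38) holds 47 protein-coding *Slc25* genes, 43 of them on autosomes. A further 4 genes on the X chromosome had a peak and stand outside the rule. No peak carried the name of the 11 remaining autosomal genes. For 3 of these 11, an annotated start nevertheless lay inside a peak named for a neighbour, as for *Slc25a47* in the peak of *Slc25a29* and for *Slc25a27* in that of *Cyp39a1*. All 32 member peaks had a mean of at least 10 and were tested.

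The libraries held between 763133 (*CtrlCre* replicate 2) and 2766416 (*Cpt1bcKO* replicate 2) counts in peaks, and correlations of log2 values across the 15039 tested peaks lay between 0.914 and 0.967 for all pairs. At member peaks of *CtrlCre* replicate 2, counting error alone ran from 7.41% of the value at *Slc25a3* to 31.6% at *Slc25a24*, and it covers counting only. All 10 CM marker genes had a peak. Marker genes of other cells had a peak for 1 of 8 fibroblast genes (*Pdgfra*), 1 of 8 endothelial genes (*Kdr*), 4 of 6 mural genes and 0 of 8 immune genes. The summed level of the CM markers ranged from 7907 to 9422 in *CtrlCre* and from 6025 to 8697 in *Cpt1bcKO*, with the lowest sum in *Cpt1bcKO* replicate 3, and that of the mural markers from 267 to 316 and from 188 to 205. The part of these shifts in the results was not tested. The *Cpt1b* peak itself covers the 5′ part of the gene and lies upstream of the floxed exons, so it does not check the deletion.

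Promoter sequences are shown for 5 members that recur in the results: *Slc25a20*, the acylcarnitine carrier, whose peak changed; *Slc25a42* (coenzyme A carrier) and *Slc25a36* (pyrimidine nucleotide carrier), whose values were separated by genotype; and *Slc25a4* and *Slc25a3*, the ADP/ATP and phosphate carriers with the highest total counts per peak in the family. Each run gives the 250 bases before the annotated start, 5′ to 3′ on the strand of the gene, from RefSeq on build GRCm38.p6. Capitals mark motifs on either strand, either the letters CCAAT, bound by NF-Y, which read as ATTGG when they lie on the opposite strand, or the ETS motif with the letters CCGGAAG. The motifs do not overlap each other.
Slc25a20: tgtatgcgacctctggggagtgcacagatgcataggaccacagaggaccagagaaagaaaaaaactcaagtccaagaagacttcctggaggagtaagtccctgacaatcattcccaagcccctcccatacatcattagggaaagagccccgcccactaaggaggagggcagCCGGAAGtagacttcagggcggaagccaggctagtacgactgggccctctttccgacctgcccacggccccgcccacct
Slc25a42: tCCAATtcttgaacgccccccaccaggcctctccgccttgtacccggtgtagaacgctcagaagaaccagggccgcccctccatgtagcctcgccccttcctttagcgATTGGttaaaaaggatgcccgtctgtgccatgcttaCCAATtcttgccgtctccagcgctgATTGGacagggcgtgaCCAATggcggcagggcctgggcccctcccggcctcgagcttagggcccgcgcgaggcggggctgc
Slc25a36: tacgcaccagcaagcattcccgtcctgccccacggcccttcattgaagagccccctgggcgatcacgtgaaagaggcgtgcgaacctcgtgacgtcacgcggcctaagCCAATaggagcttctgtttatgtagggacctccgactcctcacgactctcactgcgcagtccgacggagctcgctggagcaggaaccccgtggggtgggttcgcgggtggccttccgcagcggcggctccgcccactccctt
Slc25a4: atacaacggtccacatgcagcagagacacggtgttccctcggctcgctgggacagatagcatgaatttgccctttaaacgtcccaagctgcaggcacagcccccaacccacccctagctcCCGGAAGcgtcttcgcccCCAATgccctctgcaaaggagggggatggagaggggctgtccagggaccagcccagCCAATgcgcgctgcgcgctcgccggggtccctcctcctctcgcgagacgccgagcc
Slc25a3: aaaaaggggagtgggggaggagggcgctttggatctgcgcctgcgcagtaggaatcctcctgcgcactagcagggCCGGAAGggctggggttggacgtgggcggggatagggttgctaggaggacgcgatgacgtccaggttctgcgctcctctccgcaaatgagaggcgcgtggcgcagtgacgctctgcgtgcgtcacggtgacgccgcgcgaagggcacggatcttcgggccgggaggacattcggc
These windows lie at chr9:108661886-108662135 (plus strand), chr8:70212282-70212531, chr9:97111042-97111291, chr8:46211063-46211312 and chr10:91123968-91124217 (the last 4 on the minus strand), in the order shown.

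The sequences differed in what they hold. *Slc25a20* had a single marked motif, an ETS motif beginning 79 bases before the start, and its window held 8 CpG dinucleotides at 56.8% GC. *Slc25a42* had 5 CCAAT boxes, 2 of them on the opposite strand, beginning 249, 142, 106, 81 and 65 bases before the start. *Slc25a4* had CCAAT boxes at 112 and 56 bases and an ETS motif at 130 bases, whereas *Slc25a36* had 1 CCAAT box at 142 bases and *Slc25a3* had 1 ETS motif at 175 bases. These distances are from the RefSeq start, which at each of these genes lies further into the gene than the assigned start used for peak positions below. By the assigned start, most of the *Slc25a4* run, with all its marked motifs, lies inside the gene. Over the longer window of 300 bases that ends after the start, entries were found for 26 of the 32 members, and members without an entry included *Slc25a26*, *Slc25a32*, *Slc25a35*, *Slc25a44* and *Slc25a51*. CCAAT was present in 16 of the 26 member promoters (61.5%), compared with 37.4% of all 32851 promoters and 37.0% of the 11539 promoters that start in a tested autosomal protein-coding peak. CCGGAAG was present in 6 of 26 (23.1%), beside 8.86% and 19.3%. The letters GCATGCGC (NRF1 core), TCAAGGTCA (estrogen-related receptor motif), GTCANAGGT (middle of a PPAR-type direct repeat) and TATAAA (the box found before some starts) were in 0 of 26, and were held by 2.71%, 0.423%, 1.14% and 13.6% of all promoters and by 5.95%, 0.225%, 0.867% and 5.81% of promoters in peaks. Member promoters had a median GC content of 64.3% and a median of 24 CpG, close to the 62.7% and 23 CpG of promoters in peaks. GC content ran from 43.0% to 79.0% among members, and *Slc25a34* had 1 CpG while *Slc25a15* had 51. A match to these letters is a description and not evidence of binding.

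The family spanned a wide range of H3K4me3 levels in control CMs. Mean normalized counts per peak ran from 26.0 at *Slc25a21* to 518 at *Slc25a4*, with a median of 160, whereas the median over tested autosomal protein-coding peaks was 123. Because a wide peak collects more reads, levels were compared between genes per kb of peak. On that scale the family ran from 26.1 at *Slc25a15* to 134 at *Slc25a32*, a 5.15-fold range, with a median of 75.5 beside 70.3 for coding peaks. *Slc25a32*, which carries folate and flavin cofactors, stood at 134 ± 10.4 normalized counts per kb (SD, n = 3), higher than 98.0% of coding peaks. *Slc25a34* followed at 108 ± 2.86 (SD, n = 3), and then *Slc25a1*, the citrate carrier, at 95.1 ± 5.55 (SD, n = 3). At the other end lay *Slc25a24*, a calcium-regulated ATP-Mg/phosphate carrier, at 35.9 ± 7.15, *Slc25a21*, an oxodicarboxylate carrier, at 35.0 ± 6.17, and *Slc25a15*, the ornithine carrier, at 26.1 ± 3.04 (SD, n = 3 each). Of the 31 pairs of neighbours in this order, 26 differed by no more than the larger of their SDs. The 5 steps that exceeded it lay below *Slc25a32*, below *Slc25a34*, between *Slc25a29* and *Slc25a51*, between *Slc25a42* and *Slc25a22*, and above *Slc25a15*. Most of the middle of the order is therefore not resolved by these libraries.

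**Figure D1:**
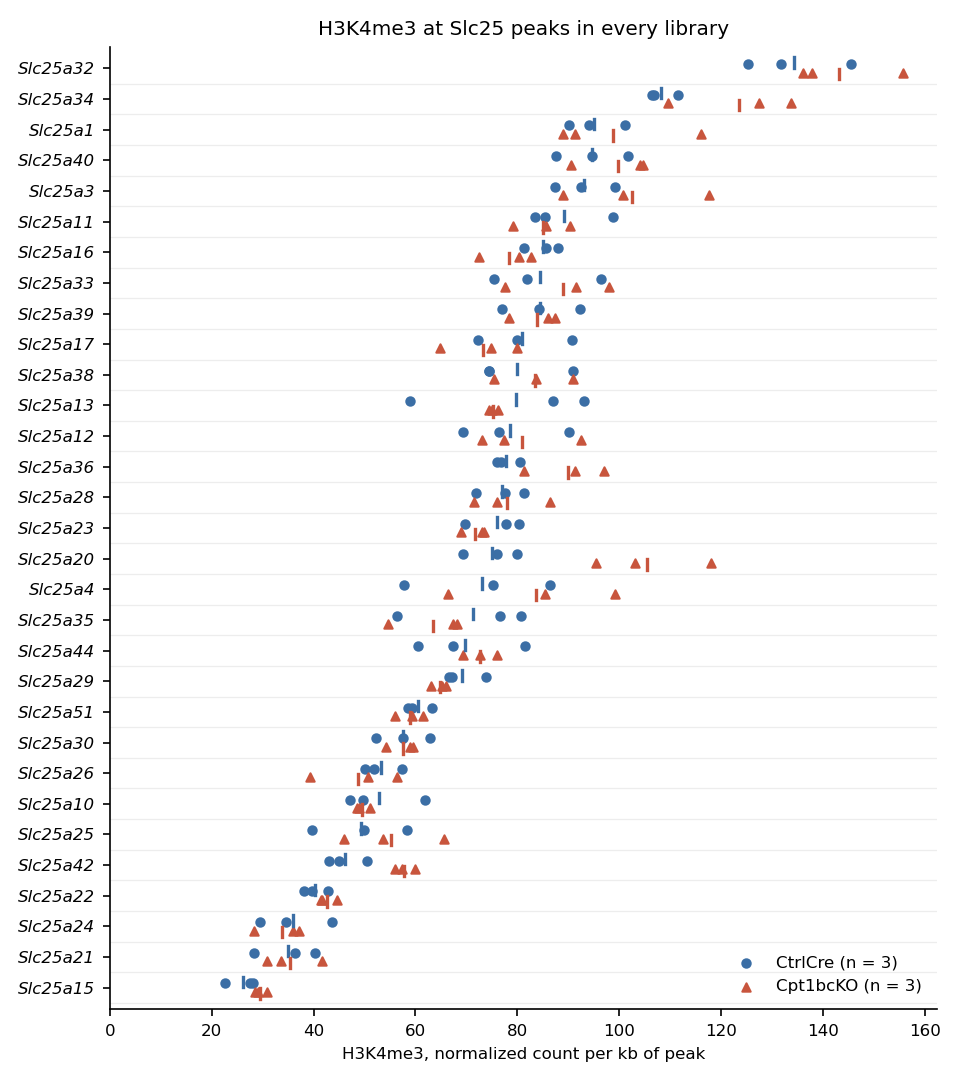
H3K4me3 at 31 of the 32 Slc25 peaks in normalized counts per kb of peak (linear axis), ordered by the CtrlCre mean. Circles are the 3 CtrlCre libraries, triangles the 3 Cpt1bcKO libraries and vertical ticks the group means. Slc25a32 is highest and Slc25a15 lowest, and at Slc25a20 all triangles lie to the right of all circles.

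The highest totals of the family lay in wide peaks. *Slc25a4*, the ADP/ATP carrier of heart and skeletal muscle, had a peak of 7075 bases (chromosome 8, 46205386 to 46212461 as given in the table), wider than 98.8% of coding peaks, and its total level exceeded 99.2% of them, but its level per kb of 73.2 ± 14.5 (SD, n = 3) exceeded only 53.6%. *Slc25a22*, a glutamate carrier, had a peak of 5706 bases, *Slc25a15* one of 4872 bases and *Slc25a3* one of 4842 bases. *Slc25a3* was high on both scales, at 93.0 ± 5.90 per kb (SD, n = 3) and a total above 98.7% of coding peaks. The family median width was 2122 bases, compared with 1639 bases for coding peaks. With broad peaks defined as those wider than the 75th percentile of tested peaks (2222 bases), 15 of 32 members (46.9%) were broad beside 27.9% of coding peaks. Only 3 members, *Slc25a38*, *Slc25a24* and *Slc25a21*, were narrow (under 1030 bases).

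Peaks were placed around the gene start and leaned into the gene. In 30 of 32 members an annotated start of the gene lay inside its peak, the exceptions being *Slc25a33* and *Slc25a21*, whose peaks began 64 and 183 bases into the gene. In 27 of 32 (84.4%) the peak reached further downstream than upstream of the assigned start, which is near the 83.1% of coding peaks. *Slc25a4* reached 5898 bases downstream and *Slc25a22* reached 5877, whereas *Slc25a26* and *Slc25a29* reached mostly upstream, by 2778 and 2432 bases. The *Slc25a22* peak lay wholly past its assigned start and held another annotated start of the gene, so its reach depends on the start taken. Over the *Slc25a20* peak (chromosome 9, 108661912 to 108663861), 78.9% of bases were intronic, 12.1% exonic and 9.03% outside the gene, and it extended 186 bases upstream and 1763 bases downstream. In 5 members another protein-coding gene also started inside the peak: *Slc25a47* with *Slc25a29*, *Rnf167* with *Slc25a11*, *Crb3* with *Slc25a23*, *Dbf4* with *Slc25a40* and *Dcaf13* with *Slc25a32*. The levels of these 5 peaks cannot be ascribed to the *Slc25* gene alone. *Slc25a32*, the highest per kb, is among them. With genes of any type counted, another gene started in 8 of 32 peaks (25%), beside 26.9% of coding peaks. This adds *Slc25a10*, *Slc25a15* and *Slc25a28*, and the same limit holds for them.

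**Figure D2:**
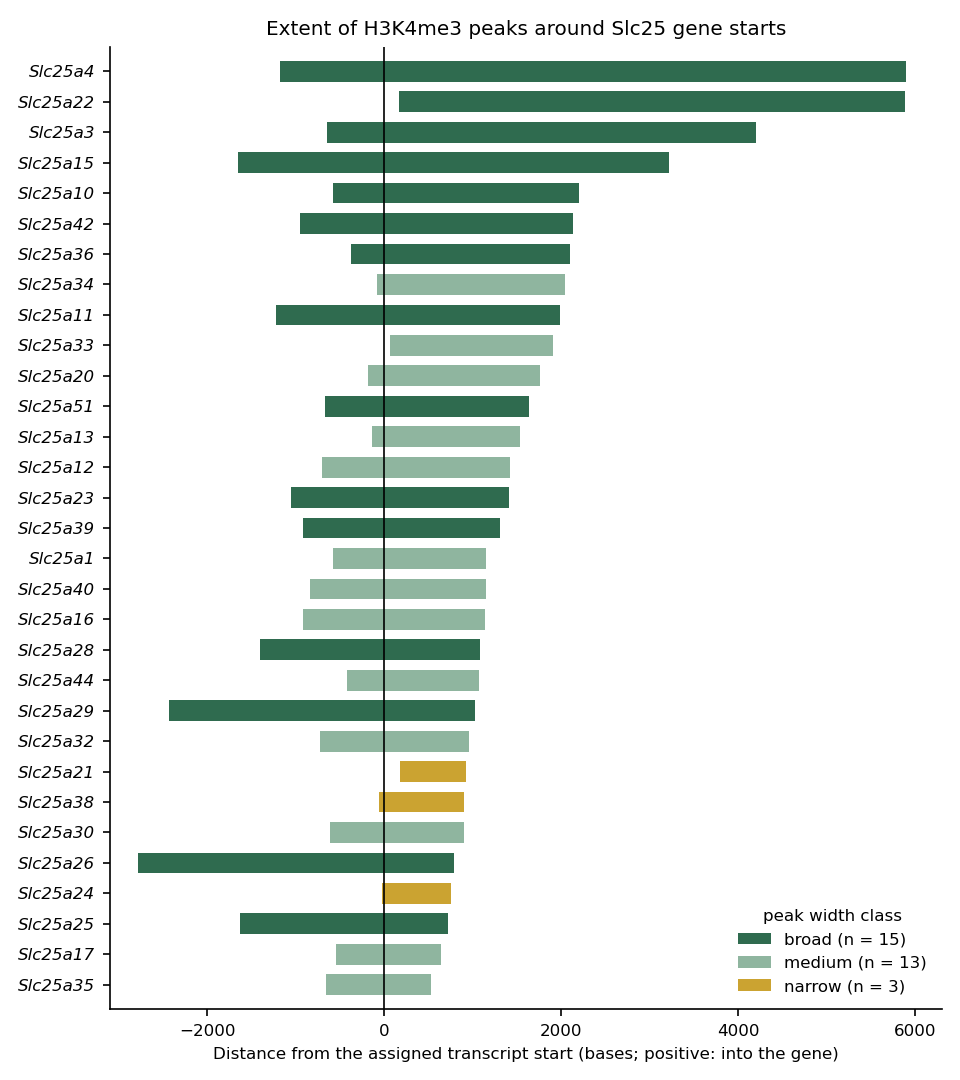
Extent of 31 Slc25 peaks in bases from the assigned transcript start at 0, with positive distances into the gene. Colours give the width class (15 broad, 13 medium, 3 narrow), and the longest downstream reach is that of Slc25a4, at 5898 bases.

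All genotype differences given here are relative to other peaks, because the normalization hides a shift shared by all peaks. The study reported a lower total H3K4me3 level in sorted *Cpt1bcKO* CM nuclei by western blot, which these values cannot show. On the relative scale, 1 of the 32 members changed. H3K4me3 at *Slc25a20* rose in *Cpt1bcKO* CMs, no member passed downward, and the other 31 did not pass the test (limma on log2(value + 1), two-sided, with Benjamini–Hochberg adjustment over all 15039 tested peaks). That 1 of 32 (3.12%) is near the background, because 2.93% of all tested peaks passed, 1.11% upward and 1.82% downward, as did 2.24% of coding peaks. At an unadjusted p under 0.05, 2 of 32 members (6.25%) were called beside 12.8% of all tested peaks. The 3 values of one genotype lay entirely to one side of the other in 5 of 32 members (15.6%), which is again near the 16.3% of all tested peaks. In 4 of these 5 the *Cpt1bcKO* values were the higher ones, a direction that 7.8% of all tested peaks showed, and in 1 they were the lower ones (8.46% of all tested peaks). For 22 members the log2 difference was smaller than its own SE. The median log2 difference was 0.033 over the family, 0.0057 over all tested peaks and 0.019 over coding peaks, and 19 of 32 members (59.4%) lay above 0 beside 51.2% and 54.8%.

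*Slc25a20* exchanges acylcarnitine for carnitine across the inner membrane, the step directly after *Cpt1b*. Normalized counts in its peak were 148, 135 and 156 in *CtrlCre* replicates 1 to 3, and 201, 230 and 186 in *Cpt1bcKO* replicates 1 to 3. Every *Cpt1bcKO* library was higher than every *CtrlCre* library. The mean rose from 146 ± 10.6 to 206 ± 22.4 (SD, n = 3 each), a 1.41-fold difference with a log2 difference of 0.49 ± 0.11 (SE, adjusted p = 0.0148, limma). By unadjusted p the peak ranked 241st of 15039. The call depended on single libraries: the adjusted p was 0.0591 without *CtrlCre* replicate 1, 0.0580 without *Cpt1bcKO* replicate 1 and 0.119 without *Cpt1bcKO* replicate 2, with log2 differences of 0.49, 0.50 and 0.40. Per kb, *Slc25a20* stood at 75.1 in *CtrlCre*, in the middle of the family, and at 106 in *Cpt1bcKO*. *Slc25a29*, placed in the same group as a carrier of arginine and lysine, had 255, 232 and 230 in *CtrlCre* and 225, 218 and 228 in *Cpt1bcKO*. All 3 *Cpt1bcKO* values were lower, by a small margin, and the difference did not pass (log2 difference −0.09 ± 0.10, adjusted p = 0.773, limma). It was the 1 member whose values were separated in the downward direction.

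**Figure D3:**
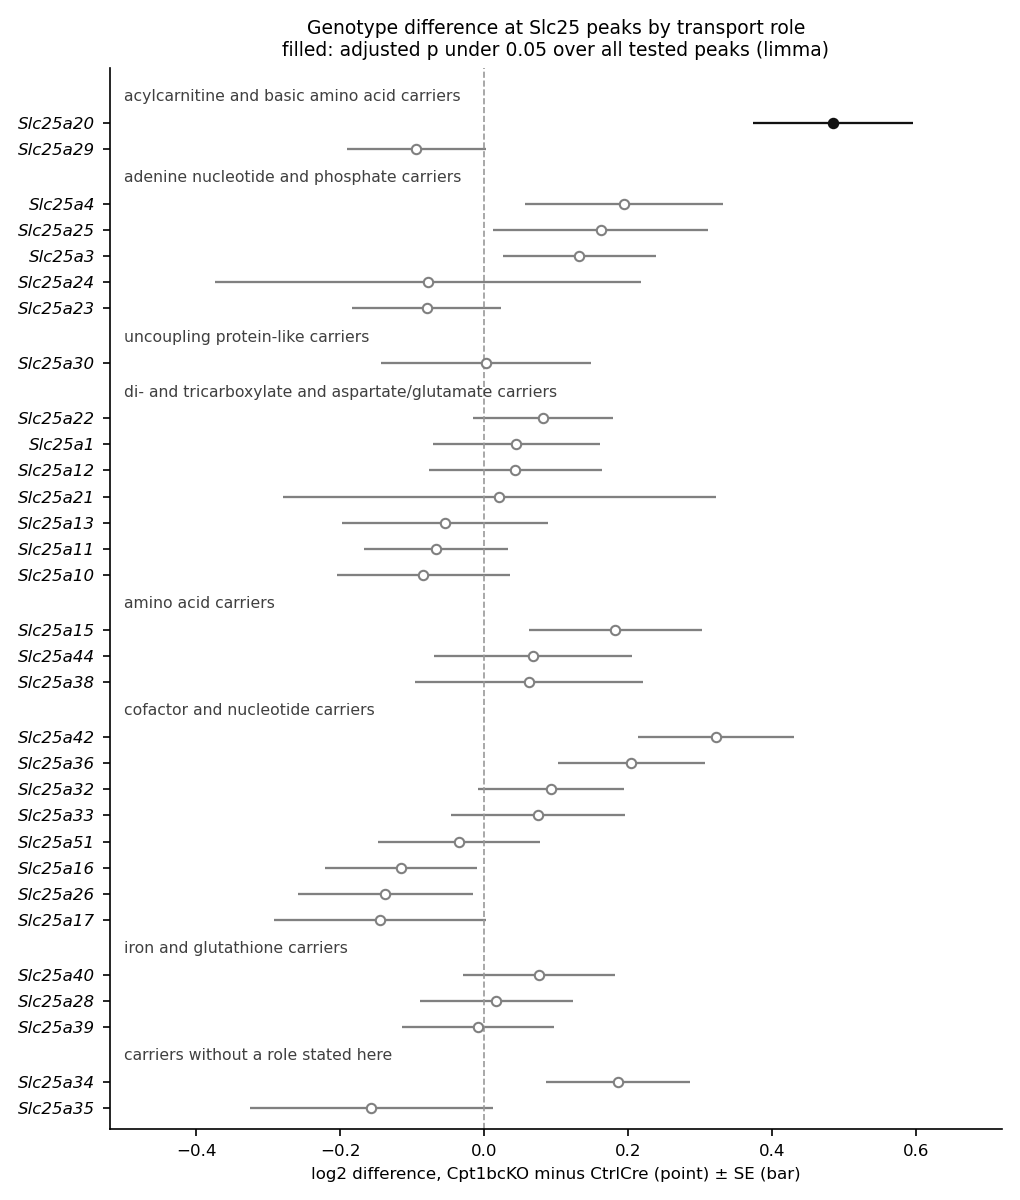
Log2 difference of H3K4me3, Cpt1bcKO minus CtrlCre, with SE bars for 31 of the 32 Slc25 peaks grouped by transport role. The filled point is the single peak with an adjusted p under 0.05 (Slc25a20, 0.49 ± 0.11), and 21 of the other bars span 0.

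Carriers of adenine nucleotides and phosphate supply ATP synthesis with its substrates and export its product. None of the 5 members in this group passed the test, and 3 of the 5 lay above 0 (median log2 difference 0.13). *Slc25a4* had 532, 409 and 612 in *CtrlCre* and 605, 702 and 470 in *Cpt1bcKO*. The genotypes overlapped widely (0.19 ± 0.14, adjusted p = 0.621, limma). *CtrlCre* replicate 3, at 612, exceeded *Cpt1bcKO* replicate 1, at 605, and *Cpt1bcKO* replicate 3, at 470, lay below *CtrlCre* replicate 1. *Slc25a3*, which imports the phosphate for ATP synthesis, had 448, 423 and 480 in *CtrlCre* and 488, 570 and 431 in *Cpt1bcKO*, with *Cpt1bcKO* replicate 3 again the lowest of its group (0.13 ± 0.11, adjusted p = 0.684, limma). At most CM markers, such as *Myh6* and *Pln*, *Cpt1bcKO* replicate 3 was likewise the lowest library, and its part in these values was not tested. When each library was left out in turn, the log2 difference ran from 0.035 (without *CtrlCre* replicate 2) to 0.35 (without *Cpt1bcKO* replicate 3) for *Slc25a4*, and from 0.028 (without *Cpt1bcKO* replicate 2) to 0.23 (without *Cpt1bcKO* replicate 3) for *Slc25a3*. Neither passed in any of these fits.

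The calcium-regulated ATP-Mg/phosphate carriers of the same group lay on both sides of 0. *Slc25a23* had 192, 198 and 172 in *CtrlCre* and 180, 170 and 181 in *Cpt1bcKO*, with overlapping values. *Slc25a24* was among the weakest peaks of the family, with 27, 23 and 34 against 28, 22 and 29, and its SE of 0.30 left room for sizeable differences in either direction. *Slc25a25* had means of 116 ± 22.0 and 129 ± 23.2 (SD, n = 3 each). Another annotated start of *Slc25a25* lay in a separate peak without an assigned gene, which these means leave out.

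The carriers of di- and tricarboxylates, aspartate and glutamate link the Krebs cycle to the cytosol and run the malate–aspartate shuttle. All 7 members with a peak lay close to 0, with a median log2 difference of 0.021, 4 above and 3 below, and a lowest adjusted p of 0.813 (limma). *Slc25a1*, the citrate carrier, had 175, 163 and 156 in *CtrlCre* and 154, 158 and 201 in *Cpt1bcKO*. A single library, *Cpt1bcKO* replicate 3, exceeded all controls, and the difference was 0.045 ± 0.12. *Slc25a11*, which exchanges oxoglutarate for malate, had means of 286 ± 26.7 and 273 ± 18.1 (SD, n = 3 each). The aspartate/glutamate carriers *Slc25a12* and *Slc25a13* had differences of 0.044 ± 0.12 and −0.054 ± 0.14, and *Slc25a10* (dicarboxylates) and *Slc25a22* (glutamate) of −0.084 ± 0.12 and 0.082 ± 0.097. *Slc25a21*, which carries oxoadipate and oxoglutarate, had 21, 30 and 27 in *CtrlCre* and 23, 31 and 25 in *Cpt1bcKO*. At recovered counts of 13 to 47 per library, only a large change could have been detected there.

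Among the amino acid carriers, all 3 members lay above 0 and none passed. *Slc25a15*, which moves ornithine and citrulline for the urea cycle, had 134, 137 and 110 in *CtrlCre* and 150, 139 and 142 in *Cpt1bcKO*. The groups were separated by only 2 normalized counts, and the difference was 0.18 ± 0.12 (adjusted p = 0.582, limma). *Slc25a38*, the glycine carrier needed for haem synthesis, had 72, 88 and 72 against 73, 88 and 81, which overlapped almost fully. *Slc25a44*, a carrier of branched-chain amino acids, had a difference of 0.068 ± 0.14.

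The carriers of cofactors and nucleotides formed the largest group and held the second smallest p of the family. Of its 9 members with a peak, 4 lay above 0 and 5 below (median log2 difference −0.035), and none passed. *Slc25a42*, which brings coenzyme A into the matrix, had 133, 156 and 139 in *CtrlCre* and 177, 185 and 173 in *Cpt1bcKO*. All *Cpt1bcKO* libraries were higher, from means of 143 ± 11.9 to 178 ± 6.11 (SD, n = 3 each), a 1.25-fold difference. The log2 difference was 0.32 ± 0.11 with an unadjusted p of 0.0070, and the adjusted p of 0.137 (limma) missed the threshold, with a range of 0.0594 to 0.384 over 13 alternative settings. *Slc25a36*, a pyrimidine nucleotide carrier, had 199, 188 and 190 in *CtrlCre* and 240, 226 and 201 in *Cpt1bcKO*. The groups were separated, with *Cpt1bcKO* replicate 3 only slightly above the highest control, and the difference was 0.20 ± 0.10 (adjusted p = 0.412, limma).

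Other cofactor carriers pointed downward without passing. *Slc25a26*, which imports S-adenosylmethionine, the methyl donor of mitochondrial methylation, had 185, 179 and 205 in *CtrlCre* and 201, 181 and 140 in *Cpt1bcKO*. The lower mean came from *Cpt1bcKO* replicate 3 (−0.14 ± 0.12, adjusted p = 0.723, limma), and without that library the log2 difference was 0.010. *Slc25a16*, a carrier linked to coenzyme A, had 167, 181 and 176 against 170, 149 and 165, and *Slc25a17*, a peroxisomal carrier of coenzyme A, FAD and NAD, had 108, 86 and 95 against 77, 89 and 95. Both pairs of groups overlapped, with differences of −0.12 ± 0.11 and −0.14 ± 0.15. *Slc25a32* had 221, 244 and 210 in *CtrlCre* and 231, 261 and 228 in *Cpt1bcKO*, so that the most densely marked member differed by no more than its SE (0.093 ± 0.10). *Slc25a51*, the NAD carrier, and *Slc25a33*, a pyrimidine nucleotide carrier, had differences of −0.035 ± 0.11 and 0.075 ± 0.12.

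The iron carrier *Slc25a28* and the glutathione carriers *Slc25a39* and *Slc25a40* had differences of 0.017 ± 0.11, −0.0079 ± 0.11 and 0.076 ± 0.11. *Slc25a28* had 193, 179 and 202 in *CtrlCre* and 215, 178 and 189 in *Cpt1bcKO*, and *Slc25a40* had 174, 202 and 188 against 207, 180 and 208. Both sets of values overlapped. *Slc25a30*, related to the uncoupling proteins, had 87, 95 and 79 in *CtrlCre* and 90, 82 and 89 in *Cpt1bcKO*, with equal means of 87.0. *Slc25a34* and *Slc25a35*, for which no substrate is given here, lay on opposite sides of 0. *Slc25a34* had 226, 237 and 227 against 284, 271 and 233, where 2 *Cpt1bcKO* libraries stood clear of the controls and replicate 3 did not (0.19 ± 0.10, adjusted p = 0.457, limma). *Slc25a35* had 96, 91 and 67 against 81, 80 and 65, with overlapping values (−0.16 ± 0.17).

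A further 10 members not given by library had *CtrlCre* means from 104 to 286 and log2 differences from −0.084 to 0.16, 5 above 0 and 5 below, with adjusted p from 0.735 to 0.992 (limma). Replicate spread at the members was similar to that elsewhere, with a median coefficient of variation of 9.11% in *CtrlCre* and 9.10% in *Cpt1bcKO*, beside 10.5% and 9.55% for coding peaks. When each member was centred on its mean over the 6 libraries, the family median per library was −0.038, −0.0089 and −0.058 in *CtrlCre* and 0.042, 0.010 and −0.0075 in *Cpt1bcKO*. All 3 *Cpt1bcKO* medians were higher, as they also were over tested coding peaks (0.00013, −0.0019 and −0.0094 in *CtrlCre*, 0.017, 0.0051 and 0.016 in *Cpt1bcKO*). Within the family, the distance between *CtrlCre* replicate 2 and *Cpt1bcKO* replicate 3 was small beside the spread within each genotype (group means −0.035 ± 0.025 and 0.015 ± 0.025, SD, n = 3 each).

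Genes that act with *Slc25a20* in the carnitine shuttle were compared next. All 6 had a peak, and 1 of 6 passed, beside 2.93% of all tested peaks. In 3 of 6 the genotypes did not overlap, all upward, beside 7.8% of all tested peaks. The list was chosen with earlier results of these data known. It includes *Cpt1b*, the gene altered by design, which was the one that passed. These shares therefore describe the listed genes and do not test them as a set. *Cpt1b* had 428, 407 and 436 in *CtrlCre* and 572, 689 and 568 in *Cpt1bcKO*, a rise of 1.44-fold (log2 difference 0.52 ± 0.10, adjusted p = 0.0036, limma). The peak also reaches into the neighbouring gene *Chkb*, so its level and its rise cannot be ascribed to *Cpt1b* alone. *Slc22a5*, the plasma membrane carnitine importer, had 165, 188 and 196 against 235, 248 and 217. These values were separated, yet the adjusted p was 0.0748 (limma) at a log2 difference of 0.35 ± 0.10. *Crat*, which transfers acetyl groups to carnitine in the matrix, was also separated, with 308, 274 and 334 against 365, 358 and 350 (adjusted p = 0.288, limma). *Cpt2*, which acts directly after *Slc25a20*, *Cpt1a*, the liver form of the *Cpt1b* enzyme, and *Acsl1*, which activates fatty acids, had overlapping values and log2 differences of 0.13 ± 0.12, −0.0082 ± 0.10 and −0.17 ± 0.12.

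**Figure D4:**
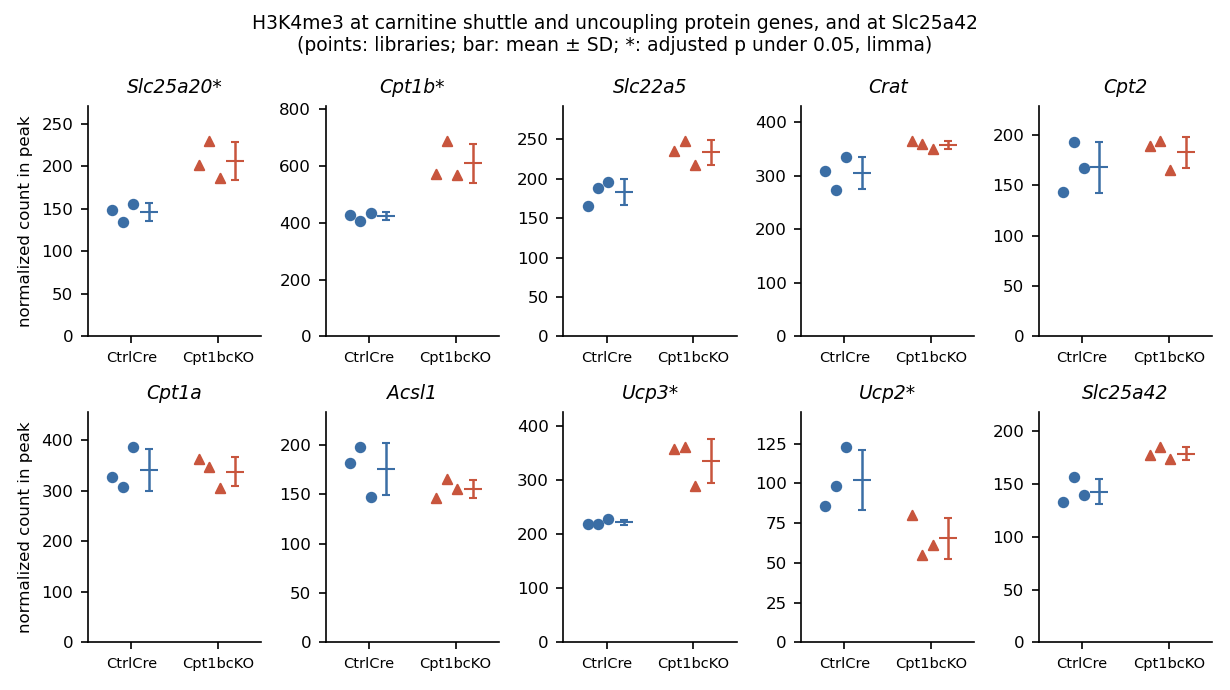
Normalized counts in the peaks of Slc25a20, its carnitine shuttle partners, Ucp3, Ucp2 and Slc25a42, with each vertical axis starting at 0. Points are libraries and bars are means ± SD (n = 3 per genotype). Asterisks mark an adjusted p under 0.05 (limma), which Slc25a20, Cpt1b and Ucp3 reach upward and Ucp2 downward.

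The mitochondrial carrier family also has members named outside the *Slc25* series. Of *Ucp1*, *Ucp2*, *Ucp3*, *Mtch1* and *Mtch2*, 4 had a peak and *Ucp1* had none. The neighbours *Ucp3* and *Ucp2* changed in opposite directions. Of the 4, 1 passed upward and 1 downward, beside 1.11% and 1.82% of all tested peaks. This list too was chosen with earlier results of these data known. Fits without a library are not given for these peaks. *Ucp3*, an uncoupling protein of muscle, had 218, 219 and 227 in *CtrlCre* and 356, 361 and 288 in *Cpt1bcKO*. Each *Cpt1bcKO* value exceeded all controls, and the level rose 1.51-fold (log2 difference 0.59 ± 0.10, adjusted p = 0.0013, limma). *Ucp2*, the uncoupling protein found in many tissues, had 86, 98 and 123 against 80, 55 and 61. Its values were separated downward by a small margin, with 86 and 80 the nearest. The level fell with a log2 difference of −0.64 ± 0.17 (adjusted p = 0.0443, limma). Their peaks lie on chromosome 7, at 100472457 to 100477453 and 100492783 to 100495644, with 15330 bases between them. The summed mural markers were lower in *Cpt1bcKO* as well, as given above. Of the 4 mural genes with a peak, *Abcc9*, which CMs also use for a potassium channel subunit, fell and made up most of that sum. Its means were 183 ± 15.3 and 126 ± 19.5 (SD, n = 3 each, adjusted p = 0.0127, limma). *Cspg4* had means of 61.7 and 30.0, with values separated downward, and did not pass (adjusted p = 0.0610, limma). *Myh11* had a lower mean and did not pass, and *Kcnj8* had equal means of 28.3. *Kdr*, the 1 endothelial marker with a peak, went from a mean of 64.7 to 42.3. *Pdgfra*, the 1 fibroblast marker with a peak, went from 65.0 to 59.3. Values of both overlapped between genotypes, and neither passed (adjusted p = 0.382 and 0.849, limma). The nuclei had been sorted for PCM1, a gate for CM nuclei, but how far it removed other nuclei was not measured here. The part of non-CM nuclei in the *Ucp2* value was not tested. Fewer nuclei of such a type and less H3K4me3 per nucleus cannot be told apart in these libraries.

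Other partners of the carriers did not pass. The malate–aspartate shuttle enzymes *Got1*, *Got2*, *Mdh1* and *Mdh2*, which work with *Slc25a11*, *Slc25a12* and *Slc25a13*, had 0 of 4 called and a median log2 difference of 0.039. Mitochondrial transport proteins of other families, among them the pyruvate carriers, the porins, the sideroflexins and the calcium uniporter, had 0 of 20 called, 10 above 0, and a median of −0.0024. At an unadjusted p under 0.05 none of these 24 was called either, beside 12.8% of all tested peaks. At such small numbers, 0 called after adjustment is near the 2.93% of all tested peaks. Only *Sfxn2* and *Slc8b1* among these 24, a sideroflexin and the sodium/calcium exchanger of mitochondria, had separated values, higher in *Cpt1bcKO*. Among all tested peaks, 16.3% were separated and 7.8% were separated upward. Neither of the genes passed (adjusted p = 0.404 and 0.573, limma), and both were chosen for mention after their values were seen.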

How the data were processed

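H3K4me3 ChIP–seq of sorted adult CM nuclei was compared between 3 *CtrlCre* and 3 *Cpt1bcKO* libraries; 6 input libraries have no column in the table. Per the study's methods, the authors checked reads with FastQC 0.11.8, trimmed them with Trimmomatic 0.39, aligned them to mm10 with STAR 2.6.1d (unique, unspliced), removed duplicates with Picard 2.21.7, called peaks against input with MUSIC (false discovery rate 0.2), merged them and assigned each to the nearest promoter within 5000 bases. The deposited values per library are counts divided by DESeq2 1.26.0 size factors and rounded by the authors, here treated as a score. The deposited genotype means are the authors' mean signal of the unrounded values, and the deposited fraction of a peak inside the gene was only read. Size factors hide a shift shared by all peaks, so differences are relative to other peaks. The deposited log2 fold changes and p-values of the authors were not used.

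Whole counts were recovered from rounded values and means, with 1 solution at 15848 of 15848 peaks (tolerance 1e-05). Tests used limma 3.58.1 in R 4.3.3 (lmFit, eBayes with trend) on log2(value + 1), peaks with a mean of at least 10 (15039, with 809 left out). A check on simulated counts used larger changes than those at the members, so it does not speak to changes of their size. Differences are on the log2(value + 1) scale, which understates those of low peaks. Values in every library are given for members with an adjusted p under 0.05, the 6 next by p in each direction, and the highest and lowest per kb of each role group. Alternatives were pseudocounts of 0.5 and 5, no filter or a mean of at least 50, quantile normalization, limma-voom on recovered counts, a replicate block, and leaving out each library. Positions are as in the table; exons and starts come from GENCODE vM21 (GRCm38). A single member entered all counts but is not reported here by itself. The members and lists were chosen with earlier results of these data known.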

Additional observations from a re-analysis of the deposited data

How the results depend on the processing

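The call at *Slc25a20* held under all 7 alternatives that kept the 6 libraries (adjusted p from 0.0118 to 0.0303, limma) and without each of 3 libraries. It was lost without *CtrlCre* replicate 1, *Cpt1bcKO* replicate 1 or *Cpt1bcKO* replicate 2, so that the number of *Slc25* peaks called ran from 0 to 1 when a library was left out. Over all tested peaks the number called ran from 229 (without *CtrlCre* replicate 1) to 431 when a library was left out, with 246 without *Cpt1bcKO* replicate 3 and 288 without *Cpt1bcKO* replicate 2. The median log2 difference over all tested peaks was 0.017 with a mean of at least 50, 0.0082 after quantile normalization, 0.0026 with limma-voom, and from 0.0016 to 0.0091 without a library. That over the *Slc25* peaks stayed between 0.023 and 0.045. Of 271 alternative values for 21 named members, 254 kept direction and side of the threshold, 3 (*Slc25a20*) lost the call and 14 changed sign, at 7 members that never passed. *Slc25a24* turned to 0.037 after quantile normalization and *Slc25a28* to −0.019 with limma-voom. Without a library, the differences ran from −0.076 to 0.12 at *Slc25a1*, −0.12 to 0.13 at *Slc25a21*, −0.21 to 0.067 at *Slc25a24*, −0.25 to 0.010 at *Slc25a26*, −0.059 to 0.077 at *Slc25a28*, −0.064 to 0.068 at *Slc25a30* and −0.0016 to 0.16 at *Slc25a38*. The cause was not tested.

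The labels do not say whether libraries of the same replicate number were prepared together. Correlations of deviations between same-numbered libraries were 0.0759, −0.0812 and 0.105, and such values cannot settle that question. With a replicate block, 370 peaks passed in place of 441, *Slc25a20* kept its call (adjusted p = 0.0303, limma), and no other *Slc25* peak passed. Depth limits the weakest peaks: at *Slc25a24* and *Slc25a21* the SE was 0.30, and 3 counts amount to a normalized value of 1.95 to 6.97, depending on the library.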

Other observations

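Members of the family on the X chromosome stood outside the rule and are given as values. *Slc25a5*, the ADP/ATP carrier of most tissues other than muscle, had 145, 135 and 157 normalized counts in *CtrlCre* and 177, 178 and 132 in *Cpt1bcKO*. Those values overlapped, and *Cpt1bcKO* replicate 3 was the lowest of all 6, as it was among the *Cpt1bcKO* libraries at *Slc25a4* and *Slc25a3*. *Slc25a14*, related to the uncoupling proteins, had 65, 77 and 64 against 80, 72 and 69, and *Slc25a53* had 76, 72 and 86 against 69, 79 and 71. *Slc25a43* was the weakest peak, with 13, 16 and 9 against 16, 14 and 10. None of the 4 passed the test (adjusted p from 0.711 to 0.974, limma).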
